A study of Mus musculus with 6 samples.

Results

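The 10 genes described here code for enzymes of glycolysis: Hk2, Gpi1, Aldoa, Tpi1, Gapdh, Pgk1, Pgam1, Eno1, Pkm and Ldha. They were taken by symbol from a table of counts for 55401 Ensembl genes, by membership of the pathway and not by their values. All 10 were found, and all 10 passed the filter on low counts that left 9196 genes for testing. Each symbol had 1 identifier with counts. A second identifier annotated as Aldoa held 0 counts in all 6 libraries and was not used.

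Glycolysis splits glucose into pyruvate in the cytosol and yields ATP and NADH without oxygen. Lactate dehydrogenase then reduces pyruvate to lactate and returns the NAD+ that the pathway needs. Granulocytes and activated immune cells are known to lean on it, and many of its genes are textbook targets of the hypoxia-inducible factor HIF-1.

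The data were 6 bulk RNA-seq libraries labelled as blood basophils of wild-type mice, 3 in set A and 3 in set B, read here as Smart-seq2, which amplifies full-length cDNA from few cells. The protocol names Smart-seq2 while the sample descriptions name 10x Genomics, and the levels per length below assume the former. Basophils are scarce granulocytes armed through surface IgE. The sort gate took live CD45+ cells without lineage markers that were positive for CD49b and for FcεRIα or IgE, and the design text names ear skin where the labels name blood. The study put 2 nmol of MC903, a vitamin D analogue that causes a dermatitis, in 10 µL of ethanol on both ears daily from day 0 to day 6, with ethanol alone in control mice. The labels used here do not say which set came from MC903-treated mice, so each difference is B minus A. Age, sex and the number of mice behind a library are likewise not stated there. The p-values therefore reflect spread among libraries that may differ only technically.

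Library totals were 46137963 to 63956911 counts, and a floor of 3 counts was 0.0469 to 0.0650 CPM (counts scaled by the library total, the usual depth-normalised unit). These floors take each count as a separate read. The totals exceed the read yield given in the labels, so the true floors may be well above these values. Genes with any count numbered 9242, 9845 and 11281 in set A and 11141, 12176 and 14066 in set B. The part of these numbers in the values below was not tested. The defining basophil markers were nearly absent from set A, though not all 10 on the list were. Fcer1a, which codes for the IgE-binding chain of the basophil IgE receptor, had 4, 0 and 0 counts there and 10736, 5584 and 2681 in set B. Mcpt8, Prss34, Cpa3 and Cd200r3 were likewise at most 1.28 CPM in each library of set A and at least 10.6 CPM in set B. Hdc, which codes for the histamine-making enzyme, was at 38.0 to 267 CPM in set A and 359 to 685 CPM in set B. Gata2, Il3ra and Ms4a2 overlapped between the sets, with A averages of 53.9, 14.6 and 3.97 CPM and B averages of 22.9, 3.11 and 13.6 CPM. Itga2 had 0 counts in set A and in B replicate 3. The summed CPM of 10 basophil markers was 39.7 to 386 in set A and 1459 to 3209 in set B. That of 13 neutrophil markers was 2401 to 9830 in A and 12572 to 23441 in B, that of 10 monocyte and macrophage markers 34520 to 41613 in A and 24207 to 31874 in B, and that of 11 T cell markers 952 to 1238 in A and 308 to 719 in B. Sums were also lower in B for 10 dendritic cell markers (2030 to 3074 against 1174 to 1686 CPM), 8 platelet markers (1146 to 1470 against 574 to 904) and 9 erythroid markers (349 to 630 against 136 to 181). Each of these sums was separate between the sets. Those of 9 B cell markers overlapped (3466 to 5646 CPM in A and 3811 to 5153 in B). So did those of 9 NK cell markers (992 to 2444 and 1026 to 1586) and 7 eosinophil markers (866 to 1622 and 450 to 1029). Mast cell and keratinocyte marker sums overlapped too. The part of these cell types in any difference below was not tested. In such bulk libraries, fewer cells of a type and less RNA per cell cannot be told apart.

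Glycolytic transcripts were abundant in all 6 libraries and did not separate the sets. The 10 genes together took 4873, 4615 and 6643 CPM in replicates 1, 2 and 3 of set A and 5164, 5212 and 4838 CPM in set B. The means were 5377 ± 1104 and 5071 ± 203 CPM (SD, n = 3 each). The difference of -306 CPM was smaller than the spread within set A, and it was 327 CPM without A replicate 3, the library with the highest sum. For 10 of 10 enzymes the ranges of the sets overlapped. Among all genes tested, 10.2% had ranges that did not overlap with B higher and 3.91% with B lower.

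**Figure D1:**
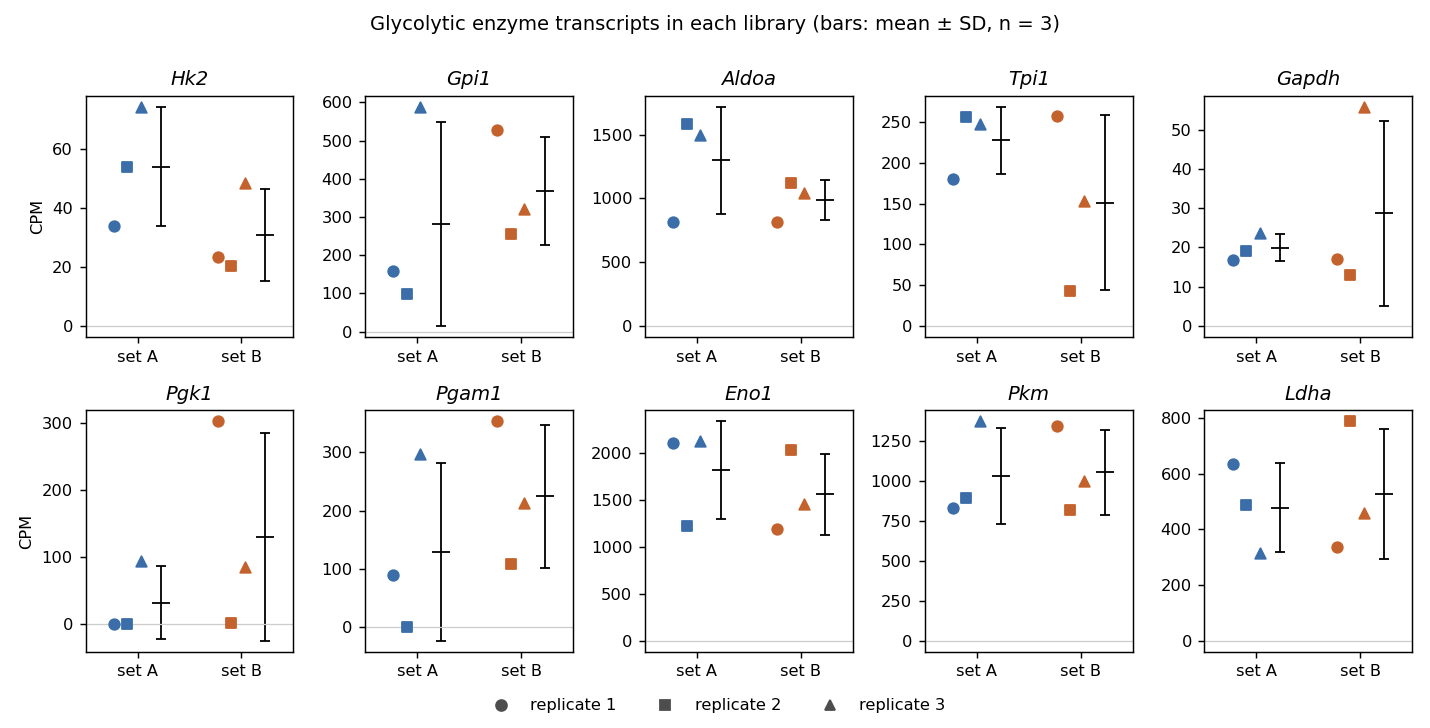
CPM of the 10 enzymes (vertical axes, each on its own scale) in the 6 libraries, with enzymes in pathway order, set A in blue, set B in orange, 1 marker shape per replicate number, and bars giving mean ± SD (n = 3). The points of the sets overlap in all 10 panels. Pgk1 stands near 0 in A replicates 1 and 2 and B replicate 2, and Pgam1 in A replicate 2.

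Compared per length of the principal transcript, Eno1, which codes for the enolase that makes phosphoenolpyruvate, had the highest mean level at 835 ± 223 CPM per kb (SD, n = 6). Aldoa, which codes for the aldolase that splits fructose bisphosphate, followed at 758 ± 218 CPM per kb. Eno1 was above Aldoa in 5 of 6 libraries, a difference within their spread. Pkm, which codes for the pyruvate kinase of the last ATP-yielding step, averaged 429 ± 104 CPM per kb and was below Aldoa in 5 of 6 libraries. Ldha, which codes for the main lactate dehydrogenase subunit of muscle and white cells, averaged 285 ± 103 CPM per kb and was below Pkm in 4 of 6. The step from Ldha down to Tpi1 (118 ± 52.1 CPM per kb), which codes for the isomerase of the triose phosphates, held in 6 of 6 libraries.

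Tpi1, Gpi1 (113 ± 68.4 CPM per kb), which codes for glucose-6-phosphate isomerase, and Pgam1 (99.7 ± 75.8 CPM per kb), which codes for phosphoglycerate mutase, could not be ordered beyond their spread. Tpi1 was above Gpi1 in 2 of 6 libraries and Gpi1 above Pgam1 in 4 of 6. Pgk1, which codes for phosphoglycerate kinase, averaged 44.2 ± 64.3 CPM per kb, with an SD larger than its mean, and was above Gapdh in 3 of 6 libraries. Gapdh, which codes for the dehydrogenase between Tpi1 and Pgk1 in the pathway, averaged 17.1 ± 11.2 CPM per kb. That placed it 9th of 10, above only Hk2, which codes for an inducible hexokinase that traps glucose in the cell and averaged 7.69 ± 3.72 CPM per kb. Hk2 was below Gapdh in 6 of 6 libraries.

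With counts of annotated copies added to every enzyme, Gapdh would stand at 468 CPM per kb, after Eno1 (1010) and Aldoa (758) and before Pkm (437), with each sum divided by the length of the enzyme's own transcript. These sums take each read as counted once, which is not known. The mouse genome holds many processed copies of Gapdh, which are sequences inserted from its spliced RNA. A search of annotated transcripts found 271 Gapdh copies of at least 85% identity over at least 300 aligned bases. Of these, 135 had counts in these libraries. Gapdh itself had 929, 1014 and 1094 counts in set A and 849, 771 and 3574 in set B. A single copy, Gm7336, had 8080, 8132 and 6872 counts in the libraries of set A, against 5184, 6071 and 9776 in those of set B, more than Gapdh in each of the 6 libraries. Copies took 92.8% to 97.6% of the counts of Gapdh and its copies in a library, and 96.3% over all 6.

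A read from the coding sequence of Gapdh need not name its gene, as the letters show. Positions 355 to 414 of the Gapdh coding sequence (counted from 1 at the start codon, transcripts of GENCODE vM21) are given with the same stretch of the copies Gm7336, which is identical over all 999 coding bases, and Gm5559, which differs at 1 of them. Capitals mark the base that differs between Gapdh and Gm5559.
Gapdh: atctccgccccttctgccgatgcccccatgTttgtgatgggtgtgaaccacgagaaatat
Gm7336: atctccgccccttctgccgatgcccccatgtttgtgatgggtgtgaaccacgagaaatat
Gm5559: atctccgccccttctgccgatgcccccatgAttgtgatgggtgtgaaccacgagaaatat
Of the 850 stretches of 150 bases (the read length) in the Gapdh coding sequence, 100% occur letter for letter in a copy. The sources used here do not give how the authors assigned such reads, so the counts of Gapdh and of its copies are uncertain to that extent. If a read was counted at each place it matches, a sum with copies holds it more than once and is too high. The level, rank and set comparison of Gapdh with copies depend on this.

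Adding the copies changed the Gapdh comparison in size and sign. With copies, Gapdh was at 666, 785 and 776 CPM in set A and at 523, 463 and 773 CPM in set B, or 742 ± 66.1 and 586 ± 164 CPM (SD, n = 3 each). Alone, it was at 16.9, 19.2 and 23.7 CPM in set A and at 17.1, 13.0 and 55.9 CPM in set B. B replicate 3 was the highest library for Gapdh alone, while with copies it stood among those of set A, and the sets overlapped in both cases. The log2 difference of B minus A was 0.46 alone and -0.43 with copies. It was -0.46 without B replicate 3 in the fit of Gapdh alone. Neither value passed the test. Some copies in the sum were counted almost only in 1 library. Gm3200 had 2169 of 2306 counts in A replicate 2, Gm11960 had 1773 of 1870 in A replicate 3, and Gm9034 had 1032 of 1038 in B replicate 3.

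Copies weighed less on most other enzymes. For Eno1, 9 copies took 8.51% to 21.8% of the joint counts, and 59.3% of the 150-base stretches of its coding sequence occur in a copy. Over all 6 libraries, most counts of the copies were in Eno1b, an annotated enolase copy of 99.4% identity. In B replicate 2, however, Eno1b had 3387 counts and another copy, Gm4735, had 6833. For Aldoa, 9 copies took 0.0212% to 0.0430%, and 0 of 943 stretches occur in a copy. The same comparison for Eno1 follows, at coding positions 1198 to 1257, and capitals mark bases that differ between the enzyme and the copy Gm4735.
Eno1: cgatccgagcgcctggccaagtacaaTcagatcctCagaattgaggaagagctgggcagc
Gm4735: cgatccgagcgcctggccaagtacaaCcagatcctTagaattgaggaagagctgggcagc
Gm4735 differs from Eno1 at 5 of 1302 coding bases, with 2 in this window.

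Pgk1 and Pgam1 also have a copy that is identical over the coding sequence, so 100% of their 150-base coding stretches occur elsewhere. The 6 Pgk1 copies nevertheless took 2.96% to 9.71% of joint counts in the 4 libraries with more than 4 Pgk1 counts. In A replicate 2, Pgam1 had 0 counts while its identical copy Pgam1-ps2 had 42. In the other 5 libraries Pgam1-ps2 took 4.96% to 6.98% of the joint counts. For Pkm (9 copies), Ldha (24), Tpi1 (7) and Gpi1 (1), copies took at most 1.99%, 2.90%, 0.970% and 0.455%. Hk2 had 0 copies by this search.

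**Figure D2:**
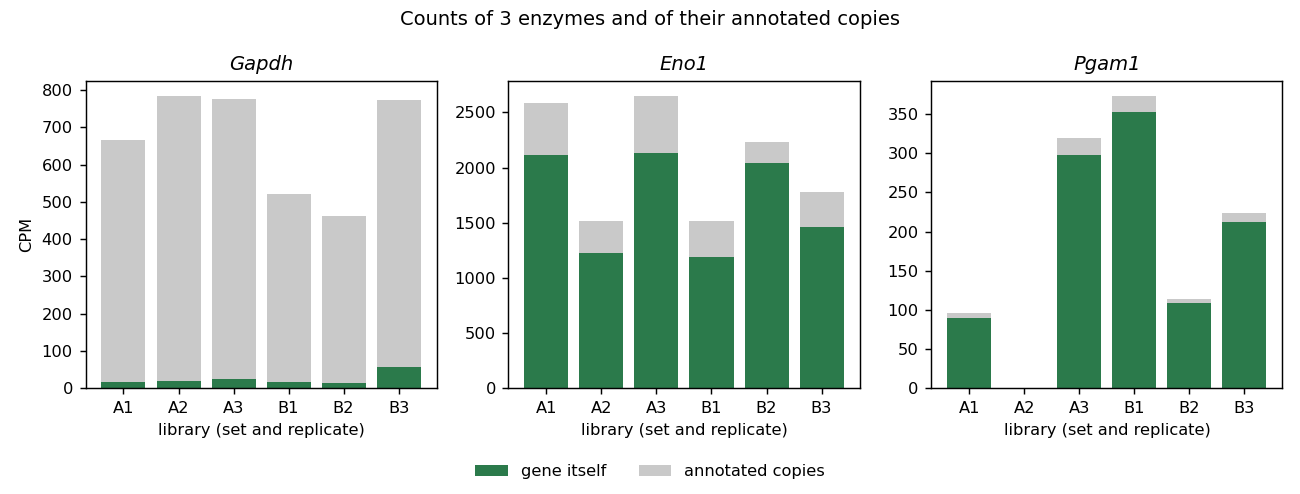
CPM (vertical axes) of Gapdh, Eno1 and Pgam1 in each library (A1 to B3, set and replicate), with the gene itself in green and its annotated copies stacked in grey. Copies make up 92.8% to 97.6% of the Gapdh bars, 8.51% to 21.8% of the Eno1 bars, and 4.96% to 6.98% of the Pgam1 bars where Pgam1 has counts.

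At the entry to the pathway, Hk2 was at 34.02, 53.7 and 74.3 CPM in set A and at 23.4, 20.5 and 48.6 CPM in set B. The highest library of B stood between the lowest and the middle one of A. Gpi1 was at 159, 99.05 and 589 CPM in set A and at 528, 256 and 321 CPM in set B. All of set B lay inside the wide range of set A, whose replicate 3 was 5.95 times replicate 2. Aldoa was at 817, 1585 and 1496 CPM in set A and at 815, 1117 and 1039 CPM in set B, and A replicate 1 stood with set B. Tpi1 was at 181, 256 and 247 CPM in set A and at 257, 43.2 and 153 CPM in set B, with B replicate 2 lowest and B replicate 1 highest of the 6.

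Among the enzymes of the lower pathway, Pgk1 varied most. It had 4, 0 and 4348 counts in set A and 15069, 93 and 5426 in set B, or 0.0726, 0 and 94.2 CPM in set A and 303, 1.57 and 84.8 CPM in set B. Its level was thus at most 1.57 CPM in 3 libraries, drawn from both sets, and at least 84.8 CPM in the other 3. Pgam1 was at 89.8, 0 and 298 CPM in set A and at 353, 108 and 213 CPM in set B. Its 0 in A replicate 2 allows up to 0.0567 CPM by counting error alone if each count is a separate read, and more if not. The low libraries of both enzymes were A replicates 1 and 2 and B replicate 2.

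The remaining enzymes were high everywhere. Eno1 was at 2112, 1223 and 2133 CPM in set A and at 1189, 2042 and 1461 CPM in set B. Pkm was at 830, 892 and 1374 CPM in set A and at 1344, 822 and 1002 CPM in set B. In both genes each set held high and low libraries. Ldha was at 634, 488 and 314 CPM in set A and at 336, 788 and 460 CPM in set B, with its lowest values in the libraries where Pkm was highest.

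Set against genes of similar abundance, Pgk1 was among the most variable and several other enzymes were ordinary. The coefficient of variation (SD over mean across the 6 libraries) of Pgk1 was 146%, and 97.1% of 2733 genes with a like mean had a lower one. For Pgam1 it was 76.0%, higher than in 82.3% of 1597 like genes, and for Gpi1 60.6%, higher than in 86.1% of 849. Of the values of genes like Pgk1, 13.4% were under 1 CPM, against 4.14% for genes like Pgam1 and 0.805% for genes like Gpi1. Eno1 (26.7%), Aldoa (28.8%), Pkm (24.2%) and Ldha (36.0%) stood near the medians of their like genes, which were 24.9%, 25.5%, 26.5% and 34.1%. Hk2 (48.3%) and Gapdh (65.3%) varied less than most genes of their level, whose medians were 97.3% and 115%.

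In the comparison of the sets, 0 of 10 enzymes passed the test in either direction at an adjusted p of 0.05, by edgeR's quasi-likelihood test, DESeq2 or limma-voom, and 0 of 10 had an unadjusted p under 0.05 in edgeR. Among all 9196 genes edgeR called 0.0217% higher and 0.0% lower in B, so a count of 0 among 10 is near the background. The 2 genes called were Mcpt8 and Prss34, which code for basophil granule proteases, and leaving out a library left 0 calls, or 1 without B replicate 3. DESeq2 called 5.34% higher and 1.13% lower, and limma-voom 2.12% and 0.0761%. The fitted log2 difference was above 0 for 5 enzymes and below 0 for 5. Their median was -0.02, beside -0.06 over all genes tested. Scaling by library size alone gave 0.10 for the enzymes and 0.05 for all genes, and RLE scaling gave -0.12 and -0.16. Both medians moved the same way with the scaling, while single genes moved by unlike amounts. With library size alone, Pkm was at 0.042 in place of -0.051 and Pgk1 at 2.051 in place of 2.048.

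How much of a difference these data leave room for varied widely between the enzymes. The narrowest intervals belonged to Pkm, at -0.05 on the log2 scale (SE 0.26, 95% interval -0.68 to 0.58), and to Aldoa, at -0.47 (SE 0.26, interval -1.10 to 0.15). Aldoa had the smallest p of the 10 (unadjusted p = 0.116 by edgeR, adjusted p = 1.00). For Eno1 the interval ran from -1.05 to 0.39 and for Ldha from -1.03 to 1.04. Differences beyond those bounds lay outside the intervals of these 4 enzymes, and smaller ones within them.

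For the other enzymes the intervals were wider. Tpi1 had a log2 difference of -0.67 (interval -2.26 to 0.92), Gpi1 0.33 (-1.30 to 1.96) and Hk2 -0.87 (-3.90 to 2.16). The interval of Gapdh alone ran from -3.30 to 4.22. Pgam1 (0.75, interval -4.21 to 5.70) and Pgk1 (2.05, interval -5.08 to 9.17) gave almost no information on a difference. The Pgk1 value was 11.52 without A replicate 3 and 0.49 without B replicate 1, the 1 library with high Pgk1 in A and the highest in B. The first of these rests on 4 counts in set A and depends on the prior count of the fit.

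**Figure D3:**
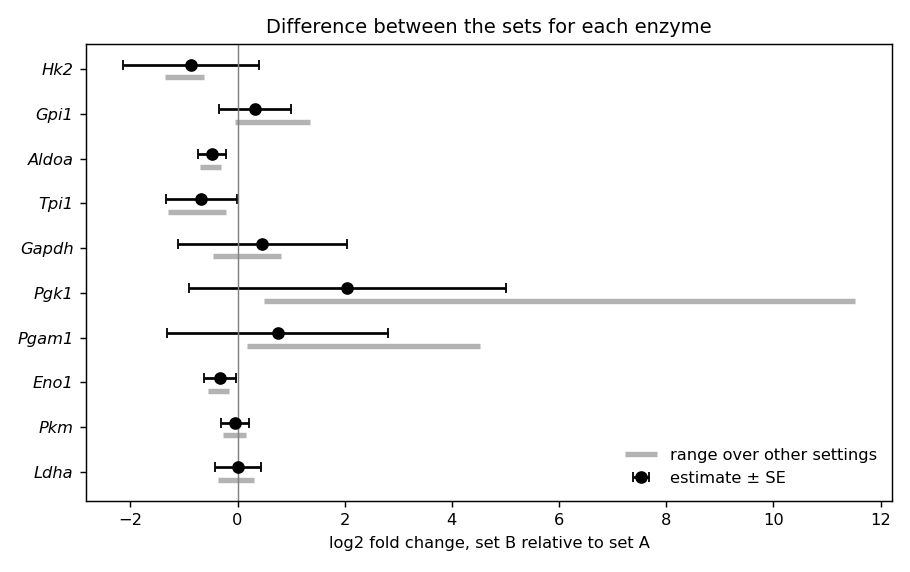
Log2 fold change of each enzyme in set B relative to set A (horizontal axis), with black points and bars for the edgeR estimate ± SE and grey bars for the range over the other settings of the analysis, left-out libraries included. The grey bars of Gapdh, Pkm, Ldha and Gpi1 cross 0, and that of Pgk1 reaches 11.52.

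The enzymes did not move as a block across libraries. Over the 45 pairs of enzymes, the median Pearson correlation of log2(CPM + 1) across the 6 libraries was 0.091, and 27 pairs were positive. Over all pairs of genes with a mean of at least 100 CPM the median was -0.0151. These correlations share 6 libraries and their scaling and are descriptions only.

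A subset ran in the same order. Pgk1 and Pgam1 ranked the 6 libraries identically (Spearman's rho 1, Pearson's r 0.694), from A replicate 2 through A1, B2, B3 and A3 to B1 (set letter and replicate number). Gpi1 followed nearly the same order, with r = 0.902 against Pgk1 and 0.856 against Pgam1 (rho 0.943 for each pair). The opposite order joined the last steps of the pathway: Pkm, which makes pyruvate, and Ldha, which consumes it, had r = -0.941 and rho -1, so that each library with more Pkm had less Ldha. Among all pairs of genes with a mean of at least 100 CPM, 0.751% had r under -0.9 and 1.85% had r over 0.9. The pairs were singled out after their values were seen. Neutrophil marker sums in that library order were 7641, 2401, 12572, 13025, 9830 and 23441 CPM, with the highest in B replicate 1 as for Pgk1. Their part in the order was not tested.

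**Figure D4:**
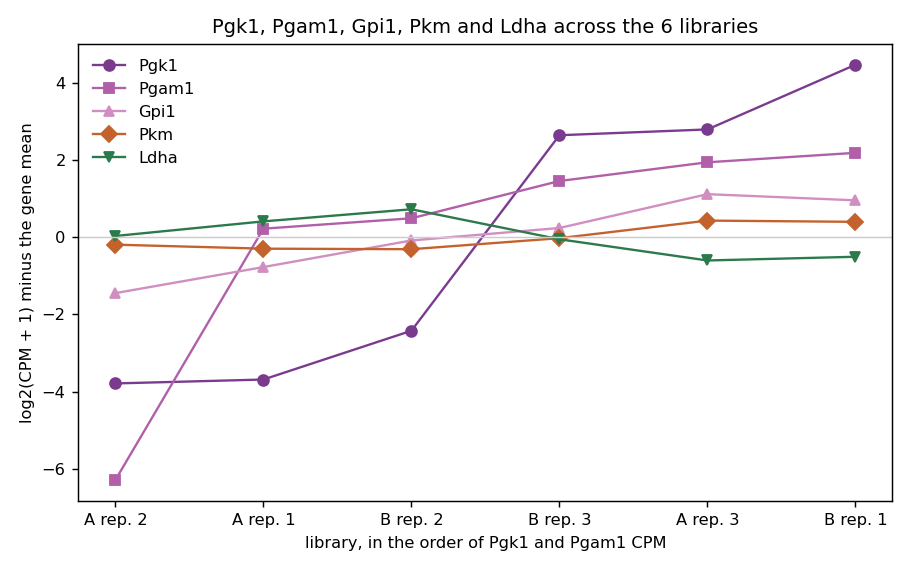
Log2(CPM + 1) of Pgk1, Pgam1, Gpi1, Pkm and Ldha minus each gene's own mean (vertical axis) in the 6 libraries, placed along the horizontal axis in the order of Pgk1 and Pgam1. Pgk1, Pgam1 and Gpi1 climb from left to right apart from a small drop of Gpi1 at the end, and the Ldha line mirrors that of Pkm.

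The genes whose level was most like the mean of the 10 enzymes over the 6 libraries were Park7 (r = 0.961), Tnfaip8l2 (0.958), Ier2 (0.957), Cd83 (0.955) and Rpl38 (0.937), of 1791 genes compared. That mean was taken over log2(CPM + 1) values not scaled to each enzyme's spread. Pgk1 and Pgam1, which ranged most widely, therefore weighed most in it. Park7 was at 153, 129 and 267 CPM in set A and at 276, 194 and 253 CPM in set B. In all, 12 of the compared genes had r over 0.9. With 6 libraries and so many genes compared, these values describe likeness only.

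The sequences upstream of the start sites were read from RefSeq (build GRCm38.p6), in which the 10 genes have 16 listed starts. Windows of 250 bases before each start were searched on both strands for ACGTG, a form of the core of the hypoxia response element. The form GCGTG was not searched. The search also took CACGTG, the E-box bound by MYC and related factors, which contains ACGTG, and GGGCGG, the GC box bound by SP1. ACGTG was found in 7 of 16 windows (43.75%) belonging to 6 of 10 genes, against 16.57% of all 32851 windows. CACGTG was found in 1 of 16 (6.25%), against 6.021%. GGGCGG was found in 10 of 16 (62.5%) for 8 genes, against 32.74%. The enzyme windows had a median GC content of 63.4%, against 52.4% over all windows, and windows of the same gene can overlap.

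Windows are printed for the pair with the same library order and the pair with the opposite order, with ACGTG on either strand in capitals. They lie on the + strand at chr7:46845554-46845803 (Ldha, the first of 2 starts), chr9:59656326-59656575 (Pkm, the first of 2), chrX:106186850-106187099 (Pgk1) and chr19:41911621-41911870 (Pgam1).
Ldha: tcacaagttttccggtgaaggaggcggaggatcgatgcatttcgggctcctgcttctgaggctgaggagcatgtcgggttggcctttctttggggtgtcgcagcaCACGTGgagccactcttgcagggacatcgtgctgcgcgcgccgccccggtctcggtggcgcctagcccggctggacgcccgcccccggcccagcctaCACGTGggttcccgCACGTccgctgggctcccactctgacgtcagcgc
Pkm: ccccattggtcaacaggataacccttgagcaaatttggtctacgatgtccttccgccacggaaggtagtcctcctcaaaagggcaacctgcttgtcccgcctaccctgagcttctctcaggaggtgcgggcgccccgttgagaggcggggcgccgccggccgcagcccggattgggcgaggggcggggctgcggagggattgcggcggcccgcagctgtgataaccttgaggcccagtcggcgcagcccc
Pgk1: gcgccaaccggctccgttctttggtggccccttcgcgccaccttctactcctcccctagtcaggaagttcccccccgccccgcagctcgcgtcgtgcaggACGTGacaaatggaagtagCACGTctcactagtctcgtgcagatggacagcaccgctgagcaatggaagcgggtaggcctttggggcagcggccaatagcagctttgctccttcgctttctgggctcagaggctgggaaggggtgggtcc
Pgam1: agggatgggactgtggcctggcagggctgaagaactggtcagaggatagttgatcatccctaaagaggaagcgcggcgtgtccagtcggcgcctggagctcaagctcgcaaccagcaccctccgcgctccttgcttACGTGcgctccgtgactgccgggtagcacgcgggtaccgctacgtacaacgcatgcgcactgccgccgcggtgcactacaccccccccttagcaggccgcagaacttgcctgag
The Ldha window holds 3 stretches with ACGTG on either strand, and 2 of them are CACGTG. Pgk1 holds 2 and Pgam1 holds 1. The printed Pkm window holds 0, its second window holds 1, and the second Ldha window holds 0. A match describes these letters and is not evidence of binding.

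Other isozymes of the pathway were mostly scarce or uneven. Of 20 listed genes, 8 had 0 counts in all libraries and 9 were tested, with 0 called higher and 0 lower by edgeR, DESeq2 or limma-voom. Pfkl, Eno2 and Ldhb had no adjusted p from DESeq2. Their median log2 difference was 0.28, against -0.06 over all genes tested. Eno3, known as the muscle enolase, was at 895, 580 and 1015 CPM in set A and at 533, 1460 and 1246 CPM in set B, with overlapping sets. Eno1b was at 334 ± 103 CPM in set A and 186 ± 112 CPM in set B (SD, n = 3 each), with the same uncertainty as its parent gene. The phosphofructokinase genes, whose enzyme makes the committed step, were Pfkp at 76.5 ± 72.3 CPM in set A and 159 ± 62.7 CPM in set B and Pfkl at 22.0 ± 37.4 and 61.1 ± 16.4 CPM. Pfkm had 0 counts.

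The hexokinases differed in make-up from library to library. Hk3, a hexokinase of myeloid cells, was at 0.109, 33.1 and 99.1 CPM in set A and at 0.101, 6.76 and 14.9 CPM in set B. Hk1 was at 0, 0 and 1.47 CPM in set A and at 0.161, 27.5 and 3.49 CPM in set B. Hk2 made up 99.7%, 61.9% and 42.5% of the summed CPM of Hk1, Hk2 and Hk3 in A and 98.9%, 37.4% and 72.6% in B. These shares are of CPM, not per length. Each set held a library near 100%, and the means differed by 1.59 percentage points (2-sided exact permutation p = 1, where 0.1 is the smallest possible). Ldha made up 84.3% to 99.9% of Ldha and Ldhb, and the sets differed by 2.51 points (exact permutation p = 0.9, adjusted p = 1 over 3 shares). Ldhb codes for the heart-type subunit and averaged 31.0 ± 52.0 CPM in set A and 23.6 ± 38.2 CPM in set B. Aldoc (8.59 ± 14.9 and 35.7 ± 33.2 CPM), an aldolase best known from brain, Eno2 (15.8 ± 27.3 and 7.71 ± 12.8 CPM), the neuronal enolase, and Bpgm (22.2 ± 38.4 and 7.79 ± 13.4 CPM, not tested) each had an SD above the mean in at least 1 set.

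Glucose enters by transporters of the Slc2a family, and lactate leaves by those of the Slc16a family. Of 11 such genes and their partners, 7 were tested and 0 were called by any of the 3 tools, with a median log2 difference of 0.17. The summed CPM of the 11 was 703 to 940 in set A and 1029 to 1154 in set B. These sums were separate between the sets, and the difference was not tested. Slc2a1 and Slc2a3, which code for GLUT1 and GLUT3, differed in share from library to library. Slc2a3 made up 0.347%, 38.9% and 98.1% of their sum in A and 36.6%, 99.3% and 23.9% in B. The sets differed by 7.47 points (exact permutation p = 0.9, adjusted p = 1 over 3 shares). The lactate exporter gene Slc16a3 averaged 81.6 ± 21.4 CPM in set A and 124 ± 80.7 CPM in set B, and Slc16a1 28.6 ± 49.5 and 20.04 ± 31.2 CPM. The genes of their chaperone partners were Bsg at 160 ± 112 and 275 ± 39.5 CPM and Emb at 366 ± 32.7 and 443 ± 115 CPM. Slc2a6, a glucose transporter gene of leukocytes, averaged 34.7 ± 32.9 and 89.2 ± 78.5 CPM.

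Among the regulators of glycolysis, 11 of 19 genes were tested, 0 were called by edgeR, and 1 was called higher by both DESeq2 and limma-voom, which called 5.34% and 2.12% of all genes higher. That gene was Pdk3, which codes for a kinase that shuts pyruvate out of the citric acid cycle by inhibiting pyruvate dehydrogenase. Pdk3 had 6, 0 and 5 counts in set A and 2858, 4087 and 4379 in set B, or 57.5, 69.1 and 68.5 CPM in set B. The sets did not overlap, and the adjusted p was 0.508 by edgeR, 1.54e-07 by DESeq2 and 0.0310 by limma-voom. Another gene of that kinase family, Pdk2, was at 54.2 ± 93.9 CPM in set A and 16.4 ± 19.2 CPM in set B. Pfkfb4, which codes for an enzyme that sets the level of an activator of phosphofructokinase, was at 141, 241 and 85.1 CPM in set A and at 75.7, 2.199 and 67.5 CPM in set B. Its sets did not overlap either, with B lower as in 3.91% of all genes tested, and its adjusted p was 1.00 by edgeR. Myc averaged 59.1 ± 41.8 and 37.0 ± 25.9 CPM. The list's median was -0.28, with 8 of 11 below 0.

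The pentose phosphate branch, which draws on the product of hexokinase to make NADPH, had 6 of 8 genes tested, 0 called by any of the 3 tools and a median of 0.08. Taldo1, which codes for transaldolase, averaged 1291 ± 342 CPM in set A and 1600 ± 129 CPM in set B. Tkt was at 115 ± 112 and 242 ± 56.2 CPM, G6pdx, which codes for the enzyme of the first step, at 314 ± 283 and 204 ± 90.9 CPM, and Rpe at 27.1 ± 24.7 and 77.0 ± 71.5 CPM. In the list for glycogen and gluconeogenesis, 7 of 15 genes were tested and 0 called by any tool, with a median of 0.02. The glycogen phosphorylase genes were Pygl at 144 ± 210 and 134 ± 68.7 CPM and Pygb at 20.9 ± 29.6 and 5.255 ± 8.07 CPM. Pgm1 averaged 22.2 ± 36.2 and 9.30 ± 16.0 CPM and Ugp2 48.5 ± 54.1 and 75.1 ± 58.1 CPM.

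Downstream, 24 of 24 genes of pyruvate entry and the citric acid cycle were tested. EdgeR, DESeq2 and limma-voom called 0 of them, and the median was 0.28 with 16 above 0, 8 below. DESeq2 gave no adjusted p for Pdha1, Dlat, Pdhx and Dlst and so could not call them. Sets did not overlap for 3 of the 24, with B higher (Sdhb, Sdhd and Dlst), a share near the 10.2% of all genes tested. The summed CPM of the 24 was separate between the sets, at 3021 to 3320 in A and 3629 to 4100 in B, and was not tested. Sdhb, which codes for the iron-sulphur subunit of succinate dehydrogenase, was at 233, 264 and 360 CPM in set A and at 665, 404 and 429 CPM in set B (adjusted p = 0.809 by edgeR). Sdhd, which codes for a membrane anchor of the same complex, was at 0.617, 161 and 169 CPM in set A and at 376, 333 and 183 CPM in set B. Dlst had 0, 0 and 4 counts in set A, against 10, 39 and 983 in B and an unadjusted p under 0.05 in edgeR, resting on B replicate 3 for most of its counts (adjusted p = 0.694). Idh3b averaged 187 ± 163 and 127 ± 19.2 CPM.

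Hypoxia targets outside glycolysis stood on both sides of 0. Of 17 listed genes, 16 were matched and 10 tested, with 0 called by edgeR and a median of 0.44. DESeq2 and limma-voom each called 1 higher, Bnip3, and 1 lower, Ndrg1. Over all genes DESeq2 called 5.34% higher and 1.13% lower, and limma-voom 2.12% and 0.0761%. Bnip3, which codes for a mitochondrial protein that promotes mitophagy, had 0, 2 and 0 counts in set A and 1312, 5323 and 1755 in set B (adjusted p 0.508 by edgeR, 5.42e-07 by DESeq2 and 0.0323 by limma-voom). Ndrg1, which codes for a stress-responsive protein, went the other way, with 2554, 2021 and 4089 counts in set A, against 11, 0 and 0 in B (adjusted p 0.519, 2.67e-05 and 0.0288). Both are classed as HIF targets in textbooks, and their sets were separate in opposite directions. The summed CPM of the 16 matched genes was separate between the sets, at 1390 to 1939 in A and 2035 to 3358 in B, and was not tested. Sums of the isozyme, regulator, pentose phosphate, and glycogen and gluconeogenesis lists overlapped between the sets.

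With Bnip3, 4 of the 10 tested genes of that list were higher in B with no overlap and 1 was lower, against 10.2% and 3.91% of all genes tested. The other 3 with B higher follow. Higd1a, a mitochondrial protein gene, was at 43.4, 109 and 72.4 CPM in set A and at 436, 149 and 125 CPM in set B (adjusted p = 0.835 by edgeR). Anxa2, which codes for annexin A2, averaged 1086 ± 291 and 1646 ± 316 CPM (adjusted p = 0.906), and Egln1, which codes for the prolyl hydroxylase that marks HIF for decay, 8.79 ± 15.1 and 44.9 ± 12.7 CPM. Hif1a itself was at 23.2, 0 and 54.3 CPM in set A and at 22.5, 14.4 and 29.6 CPM in set B, with overlapping sets. Egln1 and Hif1a were named after their values were seen. Vegfa, Adm and Car9 had 0 counts in all 6 libraries.

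**Figure D5:**
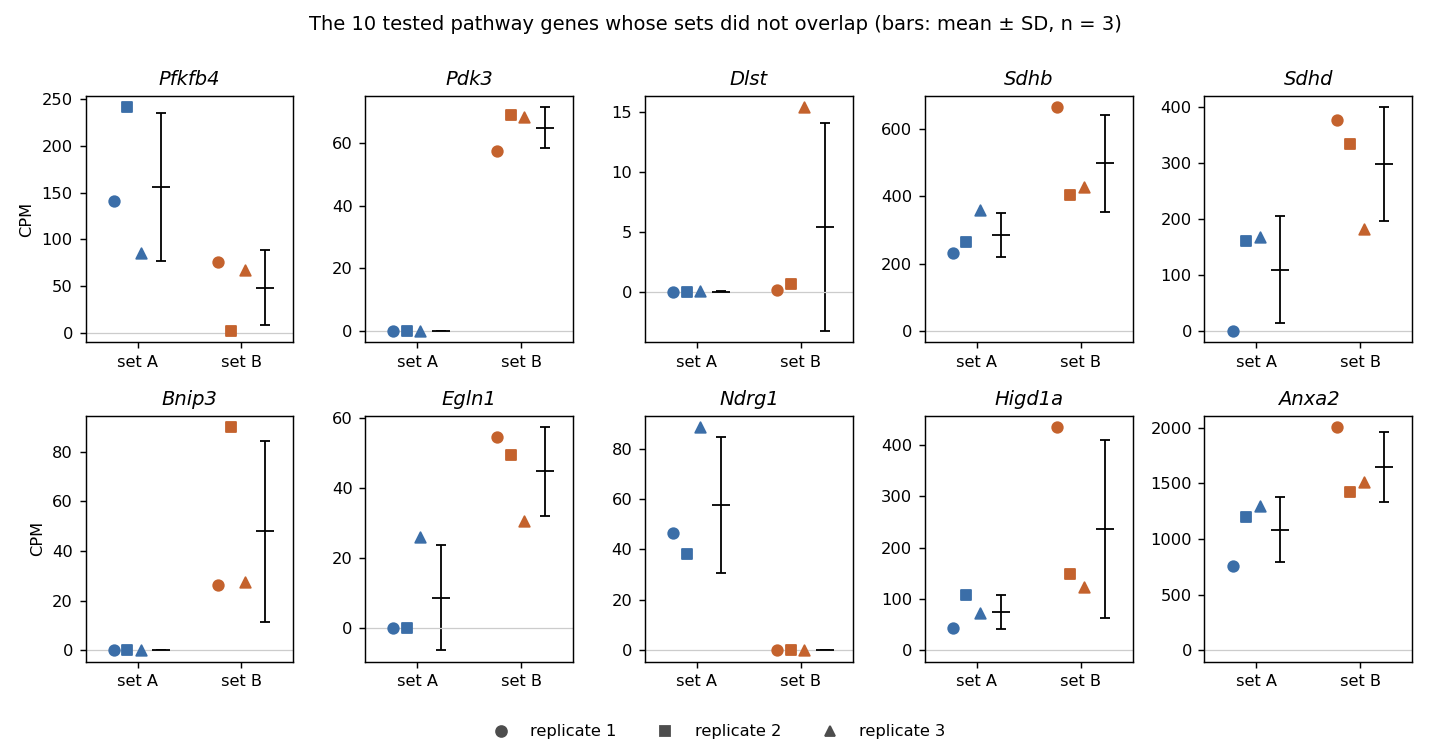
CPM (vertical axes, each on its own scale) in the 6 libraries of the 10 pathway genes outside the 10 enzymes whose sets did not overlap, with set A in blue, set B in orange and bars giving mean ± SD (n = 3). In set A, Pdk3 and Bnip3 lie at 0 or within a few counts of it, and in set B so does Ndrg1.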

How the data were processed

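The authors deposited raw counts per Ensembl gene, 1 column per library, not normalized. The submitters' processing notes list DESeq2, HISAT2 2.2.1 and cutadapt 1.9 without saying what each did. For the counter, genome build, annotation and strand setting, the sources used here give nothing. Library totals exceed the read yield in the labels, and, read as Smart-seq2, the libraries carry no molecular identifiers, so floors cover counting error only. Of 55401 identifiers, 55141 had a symbol.

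Set B was compared with set A over 6 libraries without covariates in edgeR 4.0.16 (R 4.3.3): a robust glmQLFit and glmQLFTest after filterByExpr and TMM scaling, with p-values adjusted by Benjamini-Hochberg over the 9196 genes kept and a threshold of 0.05. SE is the absolute log2 fold change over the square root of F. Intervals are 95%, from that SE and the test's degrees of freedom. DESeq2 1.42.0, limma-voom (limma 3.58.1) with quality weights, other scalings and filters, a replicate block and each library left out were alternatives. DESeq2 gave some tested genes no adjusted p, which counts here as not called. In the lists these include Pfkl, Eno2, Ldhb, Slc16a1, Arnt, Pgm1, G6pc3, Pdha1, Dlat, Pdhx and Dlst, but none of the enzymes. Shares were compared by exact permutation tests (scipy 1.17.1). Copies were found with BLAST 2.17.0 among GENCODE vM21 transcripts (GRCm38). Their sums with the enzymes were added after seeing the data. Levels per length used the principal transcript, which the authors' annotation may not share.

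The enzymes and gene lists were chosen with earlier results of these data known. Named genes were the 10 enzymes, genes called in a list, isozymes and transporters with a mean of at least 10 CPM, up to 4 genes with the smallest p in each other pathway list, the 5 genes most like the enzymes, and copies that bear on an enzyme's count. Non-overlapping genes outside this rule, genes with 0 counts and the HIF genes were named after their values were seen. Whether same-numbered libraries are paired is not stated in the labels.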

Additional observations from a re-analysis of the deposited data

How the results depend on the processing

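For the 10 enzymes, 0 were called under every setting run. The count of all genes called higher (2) was 491 by DESeq2, 195 by limma-voom and 0 to 1 with a library left out. The count called lower (0) was 104 and 7 by DESeq2 and limma-voom. Both tools called 1 regulator higher and, among hypoxia targets, 1 higher and 1 lower, against 0 in edgeR. The cause was not tested. The labels do not say whether replicate numbers pair the libraries. Correlations of same-numbered deviations were 0.028, -0.0241 and 0.0261 over 9196 genes, and those of differently numbered ones ran from -0.0535 to 0.04. Values this near 0 do not show pairing and cannot exclude it. With a replicate block, 0 genes were called (345 at an unadjusted p under 0.05) and 0 of 10 enzymes.

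Among the enzymes, signs turned for Gapdh, Pkm, Ldha and Gpi1. The log2 difference of Gapdh was -0.43 with copies, Pkm 0.042 by library size alone, and Ldha -0.11 by RLE scaling, -0.039 without a filter, -0.0085 with a stricter filter and -0.11 by DESeq2. With a library left out, Gapdh ranged from -0.46 to 0.82, Pkm from -0.28 to 0.15, Ldha from -0.36 to 0.31 and Gpi1 from -0.056 to 1.35. Pgk1 was 5.04 by limma-voom and 8.08 with the block, and Pgam1 4.53 and 2.44. The cause of these shifts was not tested.

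Other genes that turned sign in limma-voom were Eno2 (2.69), Ldhb (0.51), Slc2a3 (1.78), Slc16a1 (0.36), Pdk2 (3.50) and Pygl (1.68). With the replicate block these were Eno2 (1.67), Ldhb (0.39), Slc2a1 (0.97), Slc2a3 (0.83), Pdk2 (1.95) and Pygl (0.96). With a library left out, Eno2 ranged from -5.75 to 11.63, Ldhb from -4.34 to 4.51, Slc2a1 from -1.19 to 1.57, Slc2a3 from -1.003 to 1.36, Slc16a1 from -3.96 to 7.87, Emb from -0.062 to 0.37, Pdk2 from -3.40 to 8.60, G6pdx from -1.19 to 0.19, Idh3b from -1.13 to 0.38, Pygb from -5.17 to 0.22, Pgm1 from -9.01 to 2.79, Ugp2 from -0.011 to 1.88 and Pygl from -0.77 to 2.31. The share differences ranged from -13.05 to 17.7 points for Hk2, from -2.64 to 5.18 for Ldha and from -15.54 to 33.6 for Slc2a3. With 3 libraries a set, exact tests of a share cannot go below p = 0.1.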

Other observations

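Some enzyme copies with a sequence of their own were counted in single libraries. Ldha-ps had 659 counts, all in B replicate 2, and Gm15707, another Ldha copy, had 603, all in B replicate 3. Gapdhs, the sperm-specific relative of Gapdh, was counted 1043 times in A replicate 3, 758 times in B replicate 1 and 3 times in B replicate 3, with 0 counts elsewhere. Aldoc had 0 and 0 counts in A replicates 1 and 2, 4 in B replicate 2, 2642 in B replicate 3, 1189 in A replicate 3 and 3276 in B replicate 1. The 3 libraries with at most 4 Aldoc counts were those in which Pgk1 was at most 1.57 CPM.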
